A study of Mus musculus with 12 samples.

Results

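The 10 genes that mark the cells of the blood-brain barrier were followed in cerebellar RNA from a mouse model of spinocerebellar ataxia type 1 (SCA1). They were taken by name and hold 7 genes of endothelium (Cldn5, Ly6c1, Itm2a, Sox17, Pecam1, Slco1a4 and Cdh5) and 3 of pericytes (Vtn, Pdgfrb and Rgs5), out of 55401 gene identifiers in the count tables. All 10 passed the filter on low counts, with 80 to 3566 reads per gene and library, and were tested among 19378 genes.

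The 12 libraries of cerebellum fall into 3 groups of 4. Wild-type mice given the solvent dimethyl sulfoxide (WT DMSO, libraries 413, 425, 426 and 431) are the reference. Heterozygous knock-in mice of genotype Atxn1 154Q/2Q, in which 1 of the 2 alleles of Atxn1 codes for an expanded polyglutamine tract, received DMSO alone (Het DMSO, libraries 409, 411, 420 and 429) or the compound Hit 2 in DMSO (Het Hit 2, libraries 410, 421, 422 and 430). Every group had solvent injections into the abdomen from 18 weeks of age, in 2 courses of 5 days with 2 rest days between them, and the cerebellum was removed at 20 weeks once the vessels had been rinsed with saline. Hit 2 was dissolved at 25 mg/ml, and the dose per body weight is given only as a DMSO volume below 4 ml/kg. The expansion sits at the gene's own locus rather than in a transgene for 1 cell type, so vessel cells carry it too. Wild-type mice on Hit 2 do not appear among these groups, and the labels do not state the sex. They give a number to each library without saying in words that each is a separate mouse, so the p-values below measure the spread between these samples.

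The walls of brain capillaries are formed by endothelial cells that tight junctions seal to each other, and transporters in their membranes carry nutrients in and foreign compounds out. Pericytes sit on the outside of the capillary within a shared basement membrane, and endothelial PDGF-B acting on the receptor PDGFRB recruits them. Astrocyte endfeet cover the outer face, and Wnt ligands from neural cells maintain the barrier program of the endothelium. Both vascular cell types are a small part of the cerebellum, so in RNA of whole tissue fewer vessel cells and less RNA per vessel cell cannot be told apart.

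Depth was 15855751 to 45265719 gene reads per library. Libraries 409 and 411, both Het DMSO, stood apart from the others. Library 411 held 126 CPM (gene reads scaled to 1000000 per library) over 8 granule cell markers and 580 CPM over 8 Purkinje cell markers, against 3343 to 7871 and 3188 to 7676 CPM in the other libraries, which goes against its label of cerebellum. In library 409, mitochondrial genes took 0.0795% of gene reads against 1.85% to 2.81% without 409 and 411, and genes of low GC content were low. The members' differences that involve Het DMSO are therefore given with and without these libraries. Xist, the RNA of the inactive X chromosome of female cells, was at 1393 and 1464 CPM in libraries 425 and 426 of WT DMSO and at 0.0357 to 0.290 CPM in the other WT DMSO libraries and all 8 Het libraries. It thus moved with both comparisons against WT DMSO, and its part in them was not tested beyond leaving out both libraries, where 0 of 10 members were called.

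The promoters of Cldn5, Slco1a4 and Rgs5 are shown because these genes cover the range of GC content that separated the members in library 409 below. Windows of 250 bases before to 50 after the transcription start were taken from RefSeq on GRCm38.p6. The table held 7 windows for 6 members, with 2 windows for Ly6c1. It held none for Sox17, Pecam1, Cdh5 and Pdgfrb. The Cldn5 window is chr16:18776597-18776896 on the plus strand, that of Slco1a4 is chr6:141856171-141856470 on the minus strand and that of Rgs5 is chr1:169655251-169655550 on the plus strand. Capitals mark every match on either strand to AGGAAG, the core that ETS factors bind, to AACAAT of SOX factors and to CTTTGA of the Wnt effectors TCF and LEF. They also mark TATAAA, a motif of core promoters, and GGGCGG, which the factor SP1 binds.
Cldn5: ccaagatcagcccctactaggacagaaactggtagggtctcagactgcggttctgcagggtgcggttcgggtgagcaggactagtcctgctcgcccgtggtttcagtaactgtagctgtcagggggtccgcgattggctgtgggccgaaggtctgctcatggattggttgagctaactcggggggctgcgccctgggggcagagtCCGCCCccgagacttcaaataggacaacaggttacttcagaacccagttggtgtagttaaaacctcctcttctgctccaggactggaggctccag
Slco1a4: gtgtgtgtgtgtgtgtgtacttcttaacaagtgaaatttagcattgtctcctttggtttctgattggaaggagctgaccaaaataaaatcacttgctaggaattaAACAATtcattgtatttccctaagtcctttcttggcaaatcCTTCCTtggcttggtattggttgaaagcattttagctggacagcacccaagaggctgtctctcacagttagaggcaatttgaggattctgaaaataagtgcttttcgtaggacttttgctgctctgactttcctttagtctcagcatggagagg
Rgs5: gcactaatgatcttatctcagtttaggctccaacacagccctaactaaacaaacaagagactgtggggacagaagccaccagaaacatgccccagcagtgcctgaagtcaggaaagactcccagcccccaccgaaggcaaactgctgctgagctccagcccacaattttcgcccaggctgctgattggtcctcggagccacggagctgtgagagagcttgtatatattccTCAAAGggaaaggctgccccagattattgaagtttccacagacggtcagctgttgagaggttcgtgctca
The GC content of these windows was 58.3% for Cldn5, 40.7% for Slco1a4 and 52.3% for Rgs5. GGGCGG was found in the windows of Cldn5 and Itm2a and in 35.7% of 32851 promoter windows of the same length. AGGAAG was found in windows of Itm2a, Ly6c1 and Slco1a4 (35.4% of all windows), and AACAAT in that of Slco1a4 (10.7%). CTTTGA occurred in the Rgs5 window (5257 of all windows) and TATAAA in windows of Ly6c1 and Vtn (13.6%). These are matches of letters and do not show binding.

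Scaled to exon length and library size (RPKM, CPM per kilobase of exon), the pericyte gene Vtn, which codes for the matrix protein vitronectin, had the highest level, at 22.8 ± 3.21 (SD, n = 12). Rgs5, a regulator of G-protein signalling of pericytes, was at 15.9 ± 4.35 RPKM and the tight junction gene Cldn5 at 14.1 ± 4.85 RPKM. Ly6c1 (10.98 ± 2.47), Itm2a (8.59 ± 2.15), Pdgfrb (6.94 ± 0.971) and Slco1a4 (6.30 ± 1.83) followed on the same RPKM scale. The lowest levels were those of Cdh5 (4.04 ± 0.640), Pecam1 (3.08 ± 0.391) and Sox17 (1.15 ± 0.296 RPKM). Ranges of neighbours in this order overlapped over the 12 libraries for every pair except Pecam1 and Sox17. Within libraries the order was steadier, since Vtn exceeded Rgs5 and Cdh5 exceeded Pecam1 in 12 of 12, while Pdgfrb exceeded Slco1a4 in 7 of 12. Lengths came from GENCODE M21 and not from the annotation the reads were counted on.

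None of the 10 genes differed between groups past the threshold. With edgeR's quasi-likelihood test and Benjamini-Hochberg adjustment over all 19378 genes, 0 of 10 passed an adjusted p of 0.05 in Het DMSO against WT DMSO, where 0.00516% of all genes did (1 gene). The counts were 0 of 10 in Het Hit 2 against Het DMSO, with 0% of all genes, and 0 of 10 in Het Hit 2 against WT DMSO, with 0.00516%. A test for any difference among the 3 groups gave 0 of 10 as well, beside 0.00516% of all genes. At an unadjusted p under 0.05 the counts were also 0 of 10 in each comparison, where 7.11%, 1.55% and 1.71% of all genes passed. No member had groups of 4 that did not overlap, against 4.39%, 1.03% and 6.32% of all genes in the same order of comparisons. DESeq2, the other count test run, also called 0 of 10 in each comparison. A miss of the threshold does not show equal levels, and the intervals below give the differences that these libraries leave possible.

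**Figure D1:**
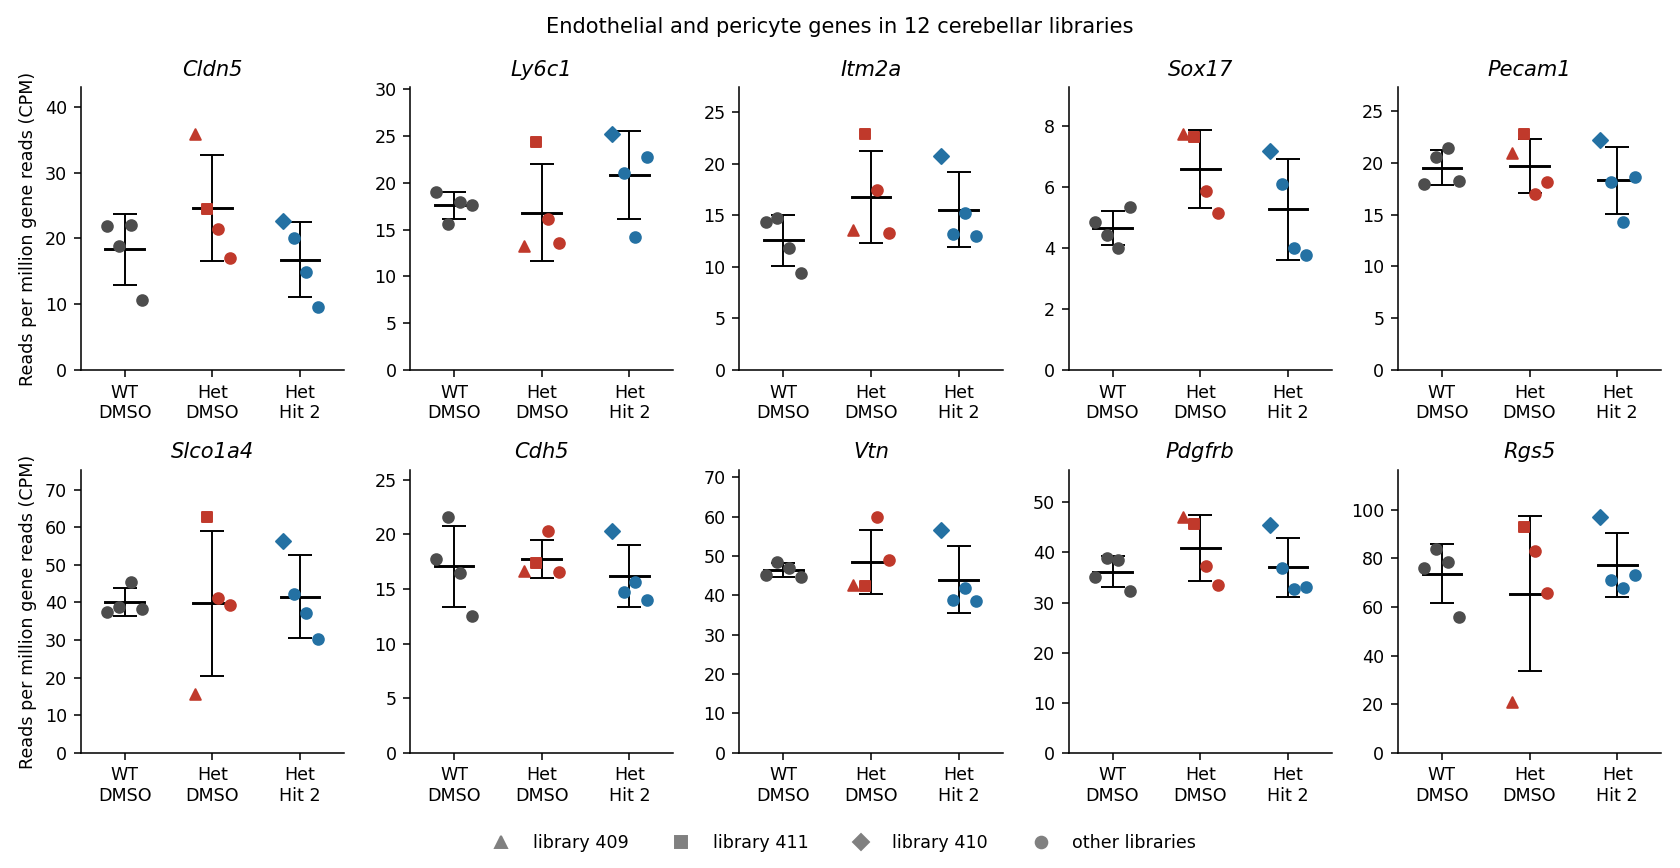
Level of each gene in CPM (linear axis from 0) in the 12 libraries; points are libraries, horizontal bars are group means and whiskers are 1 SD (n = 4). Groups overlap for all 10 genes, library 411 or 410 is near the top in most panels, and library 409 is far below the rest for Slco1a4 (15.8 CPM) and Rgs5 (20.9 CPM).

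Cldn5 codes for claudin 5, the main sealing protein of endothelial tight junctions. Its level was 21.8, 18.8, 22.1 and 10.6 CPM in WT DMSO, 35.8, 24.4, 21.4 and 17.0 CPM in Het DMSO, and 22.6, 20.0, 14.9 and 9.62 CPM in Het Hit 2 (libraries in the order given above, here and for the other genes). Library 409 was the highest and libraries 430 and 431 the lowest, and all groups overlapped. In log2 units, Het DMSO over WT DMSO was 0.43 (95% interval -0.25 to 1.11, adjusted p = 0.634 by edgeR), and of Het Hit 2 over Het DMSO -0.56 (-1.24 to 0.13, adjusted p = 0.898). Both came closer to 0 without libraries 409 and 411, at 0.05 and -0.20. Without single libraries, Het DMSO over WT DMSO ranged from 0.18 (without 409) to 0.57 (without 429), and was 0.21 without 431. Cldn5 had the highest coefficient of variation of the 10 genes over the 12 libraries, 34.5%.

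Cdh5 and Pecam1 code for the adhesion proteins VE-cadherin and CD31 at the contacts between endothelial cells. Cdh5 measured 17.7, 21.6, 16.5 and 12.5 CPM in WT DMSO, 16.7, 17.4, 20.3 and 16.5 CPM in Het DMSO, and 20.3, 14.7, 15.7 and 14.0 CPM in Het Hit 2. Pecam1 measured 17.9, 20.5, 21.4 and 18.3 CPM in WT DMSO, 20.96, 22.8, 17.1 and 18.2 CPM in Het DMSO, and 22.2, 18.1, 14.3 and 18.7 CPM in Het Hit 2. Neither gene had a group that lay apart. Pecam1 was the least variable member over the 12 libraries, with a coefficient of variation of 12.7%, while without libraries 409 and 411 Pdgfrb was, at 11.04% against 12.2% for Pecam1. For Pecam1 the log2 fold change was 0.01 (95% interval -0.32 to 0.35) for Het DMSO over WT DMSO and -0.11 (-0.45 to 0.22) for Het Hit 2 over Het DMSO. Those of Cdh5 were 0.05 (-0.34 to 0.44) and -0.13 (-0.52 to 0.26). Without libraries 409 and 411 the values were -0.16 and 0.05 for Pecam1, and 0.09 and -0.19 for Cdh5.

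Ly6c1 and Itm2a code for membrane proteins that are abundant in brain capillaries. Ly6c1 measured 19.1, 15.6, 18.0 and 17.7 CPM in WT DMSO, 13.2, 24.3, 16.2 and 13.6 CPM in Het DMSO, and 25.2, 21.1, 14.2 and 22.8 CPM in Het Hit 2. Of the Het Hit 2 libraries, 3 of 4 were above all WT DMSO libraries, and library 422 was below them, so the groups overlapped. Het Hit 2 exceeded Het DMSO by 0.31 log2 units (95% interval -0.17 to 0.78, edgeR adjusted p = 0.898). Without libraries 409 and 411 it was 0.48 (0.04 to 0.92), the only interval of a member that left out 0 with either set of libraries, with an adjusted p of 0.983 and 2 Het DMSO libraries remaining. Het DMSO over WT DMSO gave -0.07 (-0.54 to 0.41), and -0.25 without those libraries. Of the 100-base windows of Ly6c1 transcripts, 10.1% also occur in Ly6c2 or Ly6a, and 4.16% of its reads lay on the other strand, the highest share among the members.

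Itm2a lies on the X chromosome and measured 14.4, 14.7, 11.8 and 9.45 CPM in WT DMSO, 13.6, 22.9, 17.4 and 13.3 CPM in Het DMSO, and 20.8, 13.2, 15.2 and 13.0 CPM in Het Hit 2. The highest values were those of libraries 411 and 410, in different groups, and the groups overlapped. In libraries 425 and 426, which held Xist, Itm2a lay among the other WT DMSO libraries or above them. Its log2 fold change was 0.41 (95% interval -0.08 to 0.90, edgeR adjusted p = 0.616) for Het DMSO over WT DMSO and 0.27 (-0.24 to 0.78) without libraries 409 and 411. An offset on transcript GC content, added after the data were seen, gave 0.74 (SE 0.27, edgeR adjusted p = 0.512). Het Hit 2 over Het DMSO gave -0.11 (-0.60 to 0.38), and 0.02 without the 2 libraries. Het Hit 2 over WT DMSO gave 0.30, the highest of the members in that comparison, where Cldn5 at -0.13 was the lowest.

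Sox17 codes for a transcription factor of arterial endothelium. It measured 4.85, 4.41, 4.00 and 5.33 CPM in WT DMSO, 7.71, 7.62, 5.85 and 5.13 CPM in Het DMSO, and 7.18, 6.08, 4.00 and 3.75 CPM in Het Hit 2. Of the Het DMSO libraries, 3 of 4 were above all WT DMSO libraries, and 429 was below library 431. Het DMSO exceeded WT DMSO by 0.50 log2 units (95% interval -0.02 to 1.03), the largest of the 10, with an unadjusted p of 0.0592, an adjusted p of 0.616 by edgeR and an exact two-sided permutation p of 0.0571. The smallest p that 4 against 4 libraries can give in that test is 0.0286. The 2 libraries with the highest Sox17 level were 409 and 411, and without them the value was 0.23 (-0.34 to 0.80). For Het Hit 2 over Het DMSO it was -0.33 (-0.86 to 0.20), and -0.07 without them. Of the 100-base windows of Sox17 transcripts, 13.3% overlap Gm37587 on the opposite strand.

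Slco1a4 codes for OATP1A4, an organic anion transporter of the capillary membrane. It measured 37.5, 38.8, 45.5 and 38.2 CPM in WT DMSO, 15.8, 62.6, 41.2 and 39.3 CPM in Het DMSO, and 56.3, 42.4, 37.1 and 30.3 CPM in Het Hit 2. Het DMSO held both the lowest library (409) and the highest (411), and its SD was 19.2 CPM against 3.70 CPM in WT DMSO. Its log2 ratio was -0.01 (95% interval -0.71 to 0.69) for Het DMSO over WT DMSO and 0.07 (-0.64 to 0.77) for Het Hit 2 over Het DMSO. Without the 2 libraries the intervals narrowed to -0.44 to 0.43 and -0.40 to 0.48. Its transcripts share 0.640% of their 100-base windows with Slco1a1 or Slco1a5.

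Among the pericyte genes, Vtn measured 45.2, 48.6, 46.8 and 44.7 CPM in WT DMSO, 42.5, 42.4, 59.8 and 48.8 CPM in Het DMSO, and 56.6, 38.8, 42.0 and 38.6 CPM in Het Hit 2. Of the Het Hit 2 libraries, 3 of 4 were below all other libraries, and library 410 was above all WT DMSO libraries. Its log2 fold change was 0.06 (95% interval -0.26 to 0.39) for Het DMSO over WT DMSO and -0.14 (-0.47 to 0.19) for Het Hit 2 over Het DMSO. Without libraries 409 and 411 the former was 0.22 (-0.11 to 0.54) and the latter -0.31 (-0.63 to 0.02, edgeR adjusted p = 0.983).

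Pdgfrb, the receptor through which pericytes are recruited, measured 35.04, 38.8, 38.5 and 32.3 CPM in WT DMSO, 47.0, 45.6, 37.3 and 33.5 CPM in Het DMSO, and 45.5, 36.9, 32.7 and 33.1 CPM in Het Hit 2. Libraries 409, 411 and 410 were the highest, and the others lay between 32.3 and 38.8 CPM. Its log2 ratio was 0.18 (95% interval -0.14 to 0.50) for Het DMSO over WT DMSO, and -0.04 (-0.35 to 0.26) without 409 and 411. For Het Hit 2 over Het DMSO it was -0.14 (-0.46 to 0.18), and 0.06 without them.

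Rgs5 measured 76.0, 84.0, 78.4 and 56.1 CPM in WT DMSO, 20.9, 92.8, 83.0 and 65.7 CPM in Het DMSO, and 96.9, 70.9, 67.9 and 73.2 CPM in Het Hit 2. Library 409 was far below all others, and the other 3 Het DMSO libraries lay within or above the WT DMSO range. On the log2 scale Het DMSO over WT DMSO was -0.17 (95% interval -0.92 to 0.58) with all libraries and -0.00073 (-0.40 to 0.40) without 409 and 411. That of Het Hit 2 over Het DMSO was 0.24 (-0.51 to 0.99) and 0.05 (-0.35 to 0.46).

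**Figure D2:**
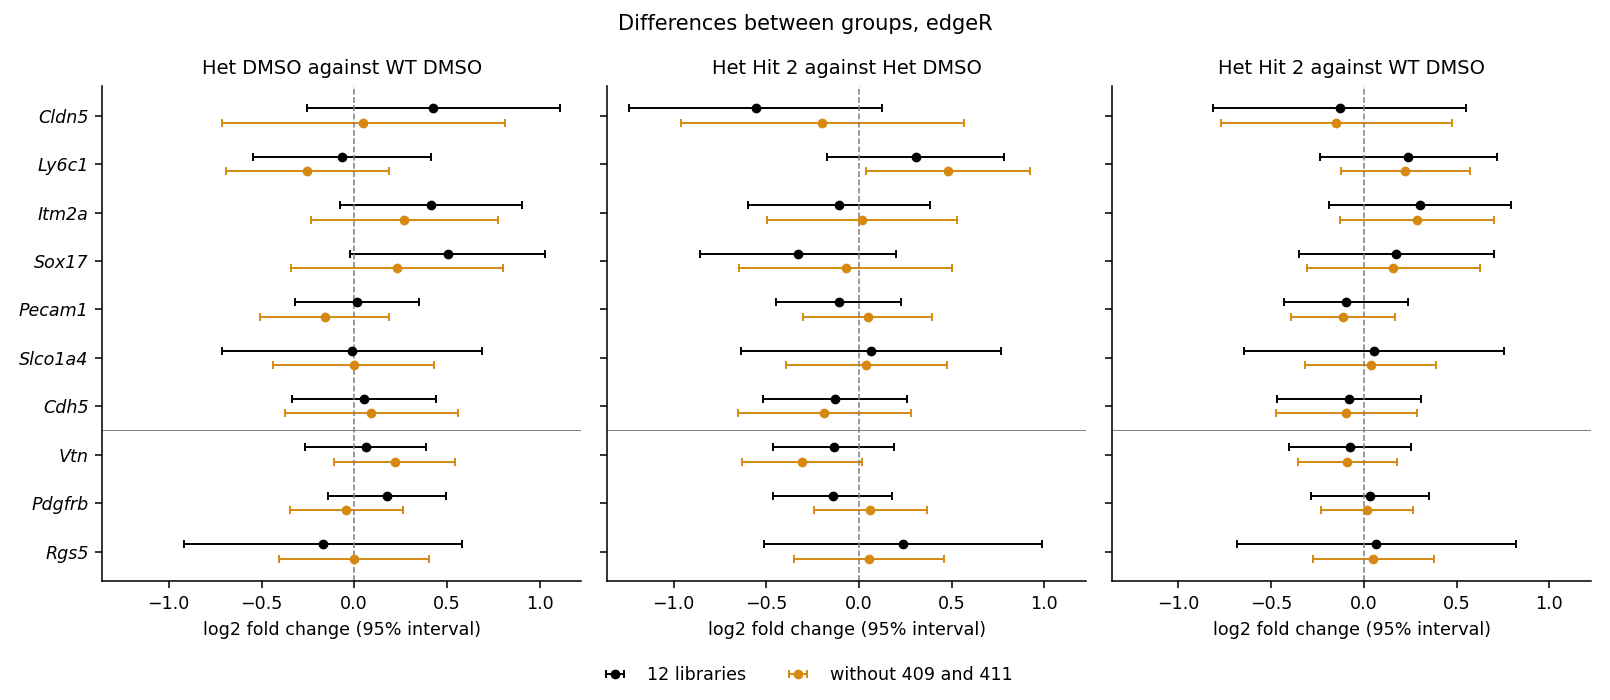
Log2 fold change of each gene (x axis) in the 3 comparisons from the edgeR fit over all genes; points are estimates and bars are 95% intervals, in black with 12 libraries and in orange without libraries 409 and 411. Black intervals all hold 0, and Cldn5 in Het Hit 2 against Het DMSO (-0.56) and Sox17 in Het DMSO against WT DMSO (0.50) lie farthest from it.

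Over the 10 genes the median log2 fold change of Het DMSO over WT DMSO was 0.06, beside 0.05 over all genes tested, with 7 genes positive and 3 negative. For Het Hit 2 over Het DMSO it was -0.12 beside -0.04, with 3 positive and 7 negative. Het Hit 2 over WT DMSO gave 0.04 beside 0.02. Without libraries 409 and 411 the 3 medians of the members were 0.02, 0.03 and 0.03. Other libraries also moved them. Without library 410 the median of Het Hit 2 over Het DMSO was -0.27 and that of Het Hit 2 over WT DMSO -0.11. The median of Het DMSO over WT DMSO was 0.17 without libraries 425 and 426, and -0.01 without library 431. Without 431 that of Het Hit 2 over WT DMSO was -0.04. The 3 comparisons share groups, so these values are not separate evidence. Across the comparisons with 12 libraries the 95% intervals of the members reached from -1.24 to 1.11 on the log2 scale.

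Differences between single libraries crossed the group borders. Library 410 (Het Hit 2) was above the median of the 12 libraries for 10 of 10 members and among its 3 highest for all of them. Library 411 (Het DMSO) was among the 3 highest for 8 of 10. Libraries 422 and 430 (both Het Hit 2) were among the 3 lowest for 7 of 10 each, and library 431 (WT DMSO) for 5 of 10. The Het Hit 2 group thus held libraries at both ends of the members' range.

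Markers of other cells moved with libraries 410 and 411. Over 8 microglia markers library 411 had 198 CPM and library 410 had 145 CPM, against 73.1 to 104 CPM in the others. Over 8 oligodendrocyte markers they had 6685 and 5577 CPM, against 1302 to 3505 CPM. Library 410 was the second lowest, after 411, in summed Purkinje markers (3188 CPM) and granule cell markers (3343 CPM). Summed over their 7 genes, the endothelial members reached 182 CPM in library 411, 175 CPM in library 410 and 112 to 139 CPM elsewhere. The part of these other cells in the members' levels was not tested. Red blood cell transcripts summed to 3.62 to 67.0 CPM and choroid plexus transcripts to 15.5 to 1951 CPM, with low and high libraries in each group.

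In library 409 the members were split by the GC content of their transcripts. Rgs5 (41.8% GC) was 0.275 times and Slco1a4 (40.2% GC) 0.402 times its median over the other libraries, while Cldn5 (60.5% GC) was 1.79 times and Sox17 (55.5% GC) 1.50 times its median. Itm2a, at 41.7% GC, stayed at 0.946 times and left this order. Over the 10 members the correlation of the deviation with GC content was 0.82 in library 409 and -0.62 to 0.26 in the other libraries, given as a description because the points share a library. The median of all genes tested also rose with GC content in this library. Of the 10 members, 6 lay within the quartiles of genes of like GC content. By construction as many of those genes lie within the quartiles as outside, so this count is a description. Itm2a lay above the quartiles, and Rgs5, Ly6c1 and Vtn below.

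**Figure D3:**
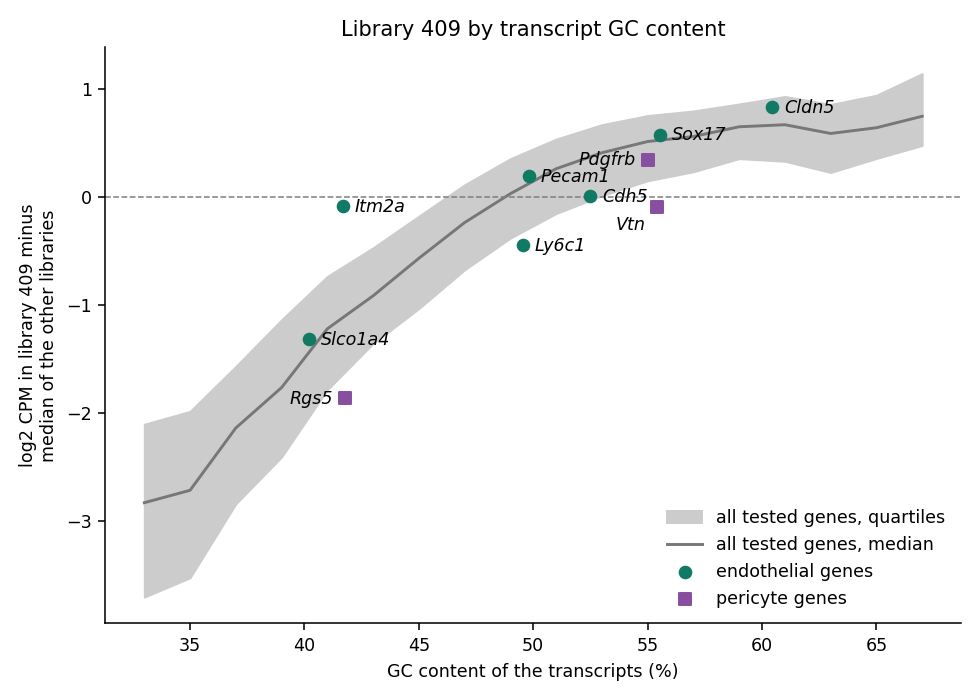
Log2 CPM in library 409 minus the median of the other libraries (y axis) against GC content of the transcripts in percent (x axis); points are the 7 endothelial and 3 pericyte genes, the line and band are the median and quartiles of all tested genes in bins of GC content. The members at 40.2% to 41.8% GC range from -1.86 to -0.08 and Cldn5 at 60.5% GC is at 0.84.

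Among 45 pairs over 12 libraries, 38 correlations of log2 CPM were positive with a median Pearson r of 0.32. Without 409 and 411, 43 of 45 were positive and the median was 0.53. By Pearson r, 3 pairs passed after adjustment over 12 libraries and 3 other pairs over the 10 libraries. Slco1a4 and Rgs5 had r = 0.90 over 12 libraries (permutation p = 0.00119, 0.0277 adjusted over the 45 pairs), a Spearman rho of 0.69 (permutation p = 0.0171, adjusted 0.124), and r = 0.55 without 409 and 411, the libraries farthest from the median. The relation thus rests on those libraries. Pdgfrb and Rgs5, both of pericytes, had r = -0.19 over 12 libraries (permutation p = 0.600, adjusted 0.730) with a rho of 0.48 (permutation p = 0.120, adjusted 0.338). Over the other 10 libraries it was r = 0.88 (permutation p = 0.00071, adjusted 0.032) with a rho of 0.90 (permutation p = 0.00063, adjusted 0.0284). Cldn5 and Pdgfrb kept the same sign, with r = 0.81 over 12 libraries (permutation p = 0.00123, adjusted 0.0277), a rho of 0.89 (permutation p = 0.00023, adjusted 0.0104) and r = 0.82 without the 2 libraries farthest from the median. Without 409 and 411 that pair no longer passed after adjustment, with r = 0.71 (permutation p = 0.0219, adjusted 0.0888) and a rho of 0.81 (permutation p = 0.00715, adjusted 0.0797). Pecam1 and Pdgfrb had r = 0.77 over 12 libraries (permutation p = 0.00257, adjusted 0.0386) with a rho of 0.68 (permutation p = 0.0191, adjusted 0.124), and r = 0.74 without the 2 libraries farthest from the median. Without 409 and 411 r was 0.71 (permutation p = 0.0237, adjusted 0.0888) and rho 0.53 (permutation p = 0.121, adjusted 0.304). Slco1a4 and Pdgfrb went from r = 0.01 (permutation p = 0.976, adjusted 0.976) to 0.84 over the 10 libraries (permutation p = 0.00264, adjusted 0.0396), with rho at 0.39 (permutation p = 0.211, adjusted 0.409) and 0.75 (permutation p = 0.0176, adjusted 0.0989). Cdh5 and Rgs5 went from r = 0.31 (permutation p = 0.344, adjusted 0.583) to 0.84 (permutation p = 0.00205, adjusted 0.0396), with rho at 0.67 (permutation p = 0.0193, adjusted 0.124) and 0.79 (permutation p = 0.00862, adjusted 0.0797).

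Other genes of the vessel wall, of astrocyte endfeet and of Wnt signalling to the barrier were taken from 13 lists with 156 genes. Of these, 155 were tested. In no comparison did any of the 155 pass the adjusted threshold in the edgeR fit. At an unadjusted p under 0.05, 8 were higher and 2 lower in Het DMSO than in WT DMSO, 0 were higher and 2 lower in Het Hit 2 than in Het DMSO, and 1 was higher and 2 lower in Het Hit 2 than in WT DMSO. Over all genes tested 7.11%, 1.55% and 1.71% passed in the same order. List medians ran from -0.12 (perivascular fibroblast) to 0.41 (venous) for Het DMSO over WT DMSO, and from -0.29 (arterial) to 0.00 (smooth muscle) for Het Hit 2 over Het DMSO. Without libraries 409 and 411, with 2 Het DMSO libraries remaining, they ran from -0.09 to 0.46 and from -0.61 (perivascular fibroblast) to 0.03. Perivascular fibroblast genes had a mean log2 deviation from their medians over 12 libraries of 0.61 and 0.52 in libraries 420 and 429. In Het Hit 2 it was 0.64 in library 410 and -0.35 to -0.19 in the others, so the groups overlapped. With all 12 libraries the median of this list was -0.0012 for Het Hit 2 over Het DMSO. The list of 20 other endothelial genes had medians of 0.22 and -0.17 in these comparisons, and 0.10 and -0.10 without libraries 409 and 411. The 16 other pericyte genes had medians of 0.03 and -0.09, and 0.03 and -0.06 without those libraries.

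**Figure D4:**
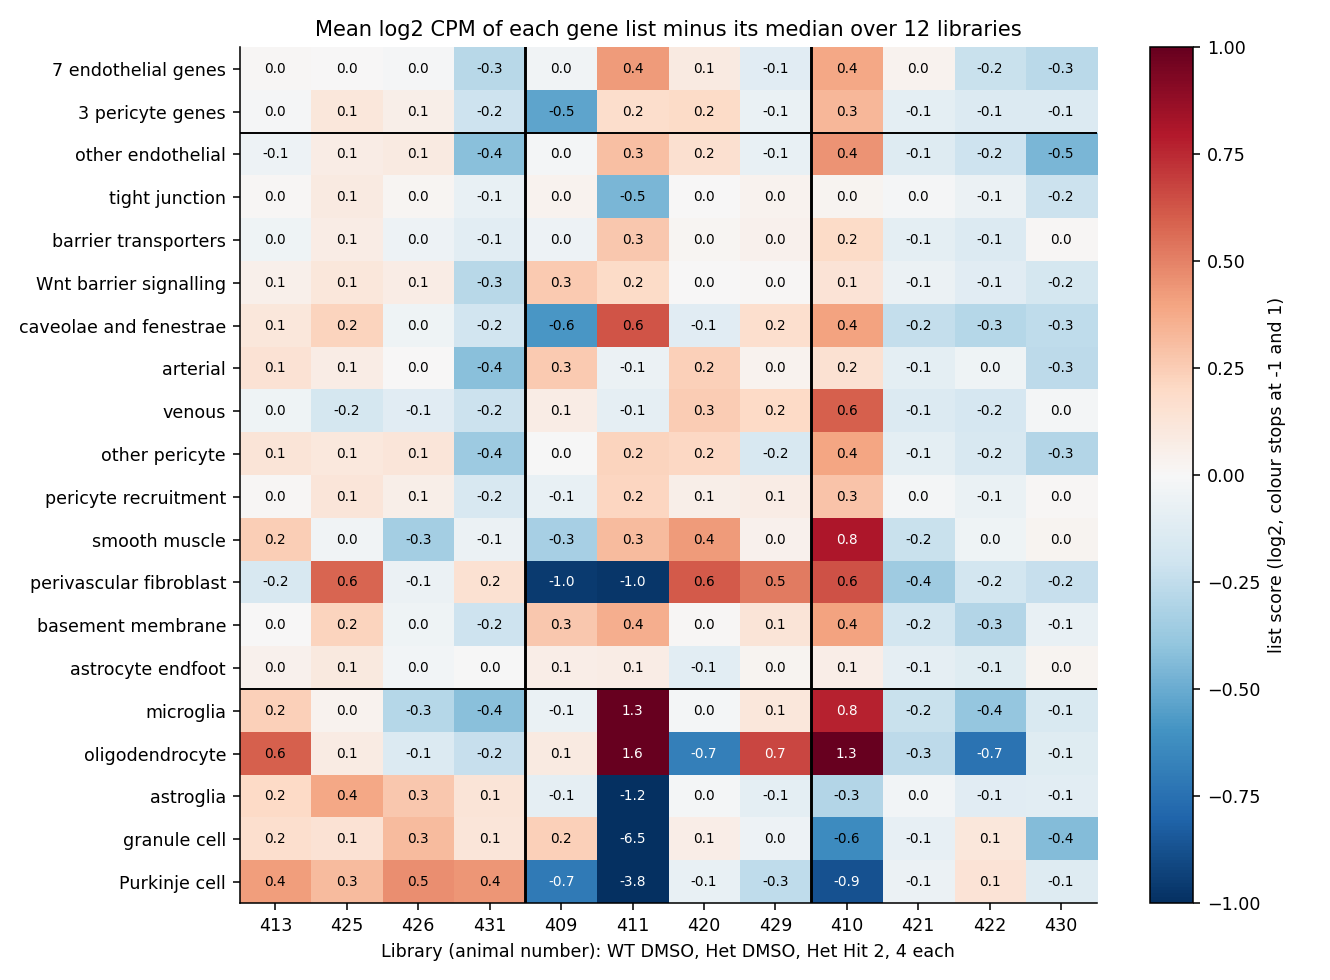
Score of each gene list (rows) in each library (columns, black lines between groups), as the mean log2 CPM of its genes minus each gene's median over the 12 libraries. Endothelial and pericyte lists are high in library 410 and low in 431. The score of the 3 pericyte members is lowest in 409 (-0.52), carried by Rgs5 (-1.84), while Pdgfrb has its highest level there. The granule cell score of library 411 is -6.49, beyond the colour range.

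Of the 11 tight junction genes, Cgn had the smallest p. Cgn codes for cingulin, a cytoplasmic junction protein found in many epithelia as well as endothelium. It measured 18.1, 22.8, 22.3 and 20.99 CPM in WT DMSO, 39.5, 30.1, 33.9 and 27.3 CPM in Het DMSO, and 26.2, 32.7, 33.6 and 27.4 CPM in Het Hit 2. Every Het library of either treatment was above every WT DMSO library. Groups did not overlap either for 4.39% of all genes in Het DMSO against WT DMSO and for 6.32% in Het Hit 2 against WT DMSO. Summed markers of other cells also separated WT DMSO from the Het libraries. The 8 astroglia markers summed to 3580 to 4016 CPM in WT DMSO, 2715 to 3159 CPM in Het DMSO and 2853 to 3040 CPM in Het Hit 2. The 8 Purkinje cell markers summed to 7350 to 7676 CPM in WT DMSO and to at most 6690 CPM in the Het libraries. Their part in Cgn was not tested. For Het DMSO over WT DMSO its log2 ratio was 0.64 (SE 0.14, unadjusted p = 8.69e-04, and 0.468 after edgeR adjustment), and 0.53 without libraries 409 and 411. DESeq2 put it past the threshold (adjusted p = 0.0424), and adjusted p-values of the alternatives ran from 0.0424 to 0.908. For Het Hit 2 over WT DMSO it was 0.51 (SE 0.14, edgeR adjusted p = 1.00), past the threshold with quality weights in limma (adjusted p = 0.0186). Het Hit 2 over Het DMSO gave -0.13 (SE 0.14), and -0.03 without libraries 409 and 411.

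Cingulin was followed by 2 genes of arterial and Notch signalling whose Het DMSO and WT DMSO groups did not overlap, as for 4.39% of all genes. Gja4, the gap junction gene of arterial endothelium, had 1.97 ± 0.352 CPM in WT DMSO, 3.33 ± 0.727 CPM in Het DMSO and 2.22 ± 0.494 CPM in Het Hit 2 (SD, n = 4). Jag1, a Notch ligand, had 9.92 ± 2.36, 16.4 ± 5.42 and 11.6 ± 1.98 CPM in the same order. Their log2 fold changes of Het DMSO over WT DMSO were 0.75 (SE 0.25) and 0.72 (SE 0.24), with edgeR adjusted p-values of 0.616 each, and 0.45 and 0.35 without libraries 409 and 411. Notch3, the receptor of pericytes and smooth muscle, had 91.4 CPM in library 409 and 27.3 to 62.6 CPM in the others. Its value of 0.65 (SE 0.23) was 0.23 without the 2 libraries. For Het Hit 2 over Het DMSO the log2 fold change of Gja4 was -0.59 (unadjusted p = 0.0346), that of Jag1 -0.51 and that of Notch3 -0.44, with an edgeR adjusted p of 0.898 each. These were -0.30, -0.16 and -0.03 without libraries 409 and 411. S1pr1, a sphingosine 1-phosphate receptor in the list of pericyte recruitment that is also expressed by astrocytes, lay in the other direction. It measured 94.3, 99.8, 89.1 and 82.7 CPM in WT DMSO, 70.3, 65.4, 86.8 and 70.1 CPM in Het DMSO, and 75.4, 69.6, 80.8 and 77.3 CPM in Het Hit 2. Het DMSO overlapped WT DMSO through library 420, and Het Hit 2 lay wholly below WT DMSO, as 6.32% of all genes had groups that did not overlap. Het DMSO over WT DMSO was -0.32 log2 units (SE 0.11, unadjusted p = 0.0143, edgeR adjusted p = 0.616), and -0.23 without libraries 409 and 411. Het Hit 2 over WT DMSO was -0.27 (SE 0.11, unadjusted p = 0.0329, edgeR adjusted p = 1.00). The part of the astroglia markers given above for Cgn in S1pr1 was not tested.

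Plvap, which forms the diaphragms of fenestrated vessels and is low in a closed barrier, measured 14.0, 9.21, 10.02 and 10.5 CPM in WT DMSO, 5.00, 12.1, 5.04 and 7.51 CPM in Het DMSO, and 7.12, 7.27, 7.50 and 6.76 CPM in Het Hit 2. All Het libraries except 411 were below all WT DMSO libraries, and Het Hit 2 and WT DMSO did not overlap, as for 6.32% of all genes. Het DMSO over WT DMSO gave -0.56 log2 units (SE 0.27, edgeR adjusted p = 0.616), -0.80 without libraries 409 and 411, and Het Hit 2 over WT DMSO -0.61 (SE 0.27, edgeR adjusted p = 1.00). Choroid plexus vessels are fenestrated, and the summed choroid plexus markers ranged from 15.5 to 1951 CPM over the libraries. The part of these markers, or of the astroglia and Purkinje cell markers given above for Cgn, in Plvap was not tested.

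In the list of Wnt signalling to the barrier, Axin2, a target gene of the pathway, measured 63.2 and 58.7 CPM in libraries 409 and 411 and 37.1 to 44.9 CPM in all others. Het Hit 2 over Het DMSO was at -0.39 log2 units (SE 0.15, and 0.898 as edgeR adjusted p), and -0.07 without these libraries. Wnt7b, a ligand of the pathway, gave 0.74 (SE 0.34) for Het DMSO over WT DMSO and 0.12 without them.

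**Figure D5:**
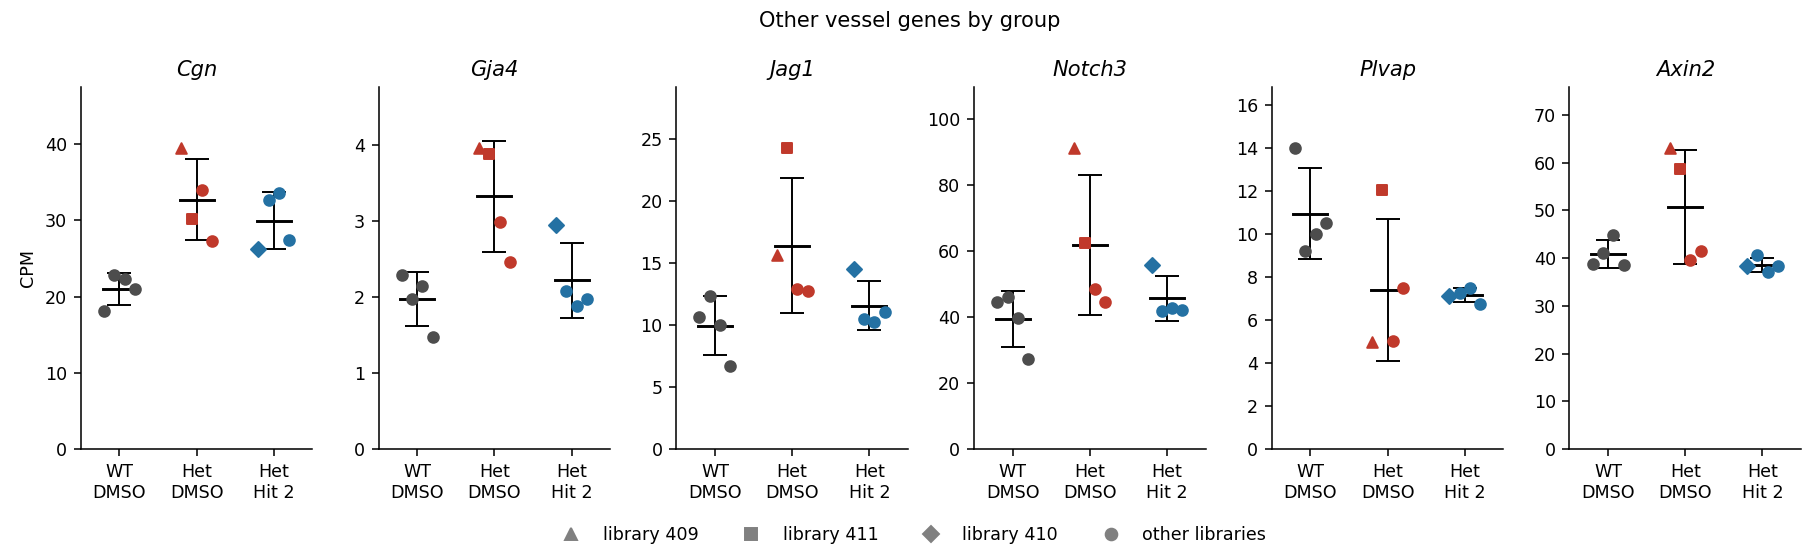
Level in CPM (linear axis from 0) of 6 vessel genes by group; points are libraries, bars are means and whiskers are 1 SD (n = 4). Cgn separates WT DMSO (18.1 to 22.8 CPM) from both Het groups, while the Het DMSO means of Gja4, Jag1, Notch3 and Axin2 are raised by libraries 409 and 411.

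The remaining named genes of the vessel lists did not pass the threshold either. The highest levels per list, in RPKM over the 12 libraries, were those of Sparc (136) in basement membrane, Ctnnb1 (70.2) in Wnt signalling, Ackr1 (46.6) in venous genes, Mlc1 (37.8) in endfeet and Unc5b (31.96) in arterial genes. Unc5b ranged from 50.9 CPM in library 411 to 475 CPM in library 409, with 141 to 234 CPM in the others. The part of other cells in its level was not tested. Slc2a1, the glucose transporter GLUT1 of the barrier, had 30.9 RPKM, with 26.8 ± 0.897 in WT DMSO, 34.1 ± 8.91 in Het DMSO and 31.9 ± 9.56 in Het Hit 2 (SD, n = 4). Libraries 409 and 411 had the highest Slc2a1 levels of Het DMSO (146.4 CPM each, against 87.7 and 97.9 CPM), and library 430 that of Het Hit 2 (157 CPM, against 77.2 to 112.5 CPM). The log2 fold change of Slc2a1 for Het DMSO over WT DMSO was 0.35, and -0.03 without 409 and 411. S1pr1 (26.3), Tjp1 (14.9), Mcam (11.8), Myl9 (8.23), Cavin1 (7.09), Flt1 (6.84) and Mgp (6.25) led the other lists. Several of these genes are also expressed outside vessels, such as Ackr1 in Purkinje cells and Ctnnb1 and Tjp1 in most cells.

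Smallest p-values for Het DMSO over WT DMSO within 6 of the other lists belonged to Esam (log2 fold change 0.33), Abcc4 (0.18), Vcam1 (0.68), Cnn1 (0.93), Col1a1 (-0.27) and Agrn (0.69). Without libraries 409 and 411 the values were 0.09 for Esam, 0.07 for Abcc4, 0.50 for Vcam1 (an adhesion receptor for leukocytes), 1.00 for Cnn1, -0.08 for Col1a1 and 0.01 for Agrn (a heparan sulfate proteoglycan of basement membrane). Cnn1 was near the floor, with 3 to 16 reads per library (0.0785 to 0.927 CPM) and an SE of 0.60 with 12 libraries. For Het Hit 2 over Het DMSO the genes, beside Gja4, Jag1, Notch3 and Axin2 given above, were Tie1 (-0.40), Lsr (-0.26), Slc16a1 (-0.34), Cavin1 (-0.39), Ephb4 (-0.37), Des (0.61), Dcn (-0.25), Lama5 (-0.48) and Mlc1 (-0.33). Without the 2 libraries these were -0.12 for Tie1, -0.13 for Lsr, -0.20 for Slc16a1, -0.28 for Cavin1, -0.16 for Ephb4, 0.33 for Des, -0.64 for Dcn, -0.26 for Lama5 and -0.06 for Mlc1. The edgeR adjusted p-values of these genes were 0.616 to 0.706 in the former comparison and 0.898 in the latter. Des was at 6.43 CPM in library 410 and at 2.07 to 2.72 CPM in the other Het Hit 2 libraries. In Het DMSO it was at 1.46 to 3.17 CPM, so its higher Het Hit 2 mean rests on library 410.

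Genes whose levels followed the members across libraries came partly from the vessel lists. The mean log2 deviation of the 7 endothelial members correlated best with Tmeff2 (r = 0.95), Fam131c (0.93), Cx3cr1 (0.93), Cd34 (0.93) and Rai2 (0.93) over 12 libraries. Over the 10 libraries without 409 and 411 the closest were Caskin2 (0.95), Acvrl1 (0.94), Vwa1 (0.94), Abcg2 (0.94) and Ednra (0.93). For the 3 pericyte members, the closest over 12 libraries were Gm20559 (0.94), Rbpms (0.94), Atp13a5 (0.93), Cav1 (0.93) and Tpm4 (0.92), and over 10 libraries Rai2 (0.96), Ets1 (0.95), Inpp5f (0.94), Dock6 (0.94) and Vwa1 (0.92). Cx3cr1 is a marker of microglia, whose summed level was also highest in libraries 411 and 410. These are the highest of many correlations and are given as a description.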

How the data were processed

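RNA of cerebellum depleted of ribosomal RNA was sequenced in 12 directional libraries, each from 500 ng of RNA (13 amplification cycles, paired reads of 100 bases), per the labels' protocols. The authors deposited raw counts of reads per gene, in the layout of the aligner STAR (unstranded, first-read strand and opposite strand), per the files themselves. STAR 2.7.10a, FastQC 0.11.9 and genome GRCm39 are named in the submitters' processing notes; the annotation is not given in the sources used here. Opposite-strand counts were used, since 5.21% to 6.47% of gene reads lay on the other strand. Reads unassigned to a gene (44.7% to 54.6% of a library), multimapping (4.08% to 7.01%), unmapped (3.70% to 6.53%) and ambiguous reads (0.761% to 1.33%) stayed out of library sizes and tests. Gene symbols, exon lengths and transcript GC content came from GENCODE M21 on GRCm38, which matched 55141 of 55401 identifiers. No coordinate of a gene is given for that reason, and those of promoters belong to RefSeq's own build.

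Counts were tested with edgeR 4.0.16 in R 4.3.3 on all 12 libraries in 1 fit with 1 coefficient per group, after filterByExpr (19378 genes) and TMM scaling, with Benjamini-Hochberg adjustment over all genes and a threshold of 0.05. CPM are counts scaled to 1000000 per TMM-scaled library, log2 CPM has a prior count of 2, and 95% intervals use the fit's standard errors. Single members were also compared by an exact two-sided permutation test over all 70 ways to divide 8 libraries between a pair of groups, and correlations by 100000 permutations. The edgeR script was tested on simulated data. Alternatives were DESeq2 1.42.0, RLE factors, robust quasi-likelihood, counts of both strands, no filter or a stricter one (mean of 50 reads or more), a fit of the groups compared alone, library quality weights in limma 3.58.1, 1 surrogate variable (sva 3.50.0), leaving out each library, libraries 409 and 411, or libraries 425 and 426, and an offset on transcript GC content, the last added after the data were seen.

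The members and lists were chosen with earlier results of these data known. Lists of other vessel genes and of other cells were written by hand from textbook markers. By the naming rule, all 10 members are described, and from each vessel list the gene with the highest RPKM, the genes with the smallest p in Het DMSO against WT DMSO and in Het Hit 2 against Het DMSO, and any gene past the threshold. The rule also takes the 10 other genes, with a mean of at least 1 CPM, whose log2 CPM correlated best with the mean deviation of the endothelial or the pericyte members, of which the text names 5 each. Xist was named outside the rule, after its values were seen. A gene that the rule takes is not reported here.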

Additional observations from a re-analysis of the deposited data

Results flagged for a closer look

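In 36 groups of 4 values (each member and the mean deviation of each cell type, in each group of libraries), 2 values lay so far from the other 3 that Dixon's ratio of the gap to the range passed its critical value at the 95% level. Chance gives about 1 in 20, or 1.8 of 36. The mean log2 deviation of the 7 endothelial members from their medians was -0.28 in library 431, the lowest of WT DMSO, where the other 3 libraries lay between -0.01 and 0.01. In that library Cldn5, Itm2a and Cdh5 were the lowest of the WT DMSO group, at 10.6, 9.45 and 12.5 CPM, while Sox17 was the highest at 5.33 CPM and Ly6c1, Pecam1 and Slco1a4 were neither the lowest nor the highest. The mean deviation of the 3 pericyte members was 0.33 in library 410, the highest of Het Hit 2, where the other 3 libraries lay between -0.14 and -0.10. All 3 pericyte members were highest there within the group, with Rgs5 at 96.9 CPM.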

How the results depend on the processing

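The count of members called was 0 in each comparison and in the test over 3 groups under every alternative that gave one (95 counts in all). The smallest adjusted p was 0.343, by edgeR without library 429. The medians over the members moved by less than the spread of the member median between replicates, 0.179 log2 units. They moved farthest without library 410. Changes of their sign without libraries 410 and 431 stand beside the medians above, and quality weights gave -0.00575 in Het DMSO against WT DMSO and -0.0558 in Het Hit 2 against WT DMSO, where 1 surrogate variable gave -0.0604. Of 480 values of single members in Het DMSO against WT DMSO and Het Hit 2 against Het DMSO (those of Het Hit 2 against WT DMSO were not counted), 444 kept their sign and 36 changed it. In Het DMSO against WT DMSO, Pecam1 (0.01) was -0.00248 with no filter, -0.00611 with a mean of at least 50 reads, -0.166 with quality weights, -0.0586 with 1 surrogate variable, -0.160 without libraries 409 and 411, -0.0270 with the GC offset and -0.0447 to 0.0768 without single libraries. Slco1a4 (-0.01) was 0.00412 with unstranded counts, 0.0613 without libraries 425 and 426, 0.245 with the GC offset and -0.317 to 0.246 without single libraries. Cdh5 (0.05) was -0.0251 and Vtn (0.06) -0.0412 with the GC offset, with -0.0939 to 0.184 and -0.0557 to 0.134 without single libraries. Pdgfrb (0.18) was -0.0596 with quality weights and -0.0442 without libraries 409 and 411. Without single libraries Ly6c1 ranged from -0.282 to 0.0272 and Rgs5 from -0.382 to 0.120. In Het Hit 2 against Het DMSO without libraries 409 and 411, Itm2a was 0.0163, Pecam1 0.0468 and Pdgfrb 0.0615, and Itm2a ranged from -0.289 to 0.0457 without single libraries. Slco1a4 (0.07) was -0.0337 with quality weights, -0.201 with the GC offset and -0.199 to 0.355 without single libraries. With quality weights Pdgfrb was 0.00423 and Rgs5 (0.24) was -0.00527, and Rgs5 ranged from -0.0584 to 0.436 without single libraries. Lsr in the same comparison was 0.0562 with unstranded counts, against -0.26. Cgn passed the threshold with DESeq2 in Het DMSO against WT DMSO (adjusted p = 0.0424) and with quality weights in Het Hit 2 against WT DMSO (adjusted p = 0.0186), in 1 of 25 settings each. The causes of the sign changes were not tested. No paired analysis was possible because the numbers in the labels do not recur between groups. With 4 libraries per group and 80 reads for the lowest member and library, the printed intervals give the differences left possible.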
